A study of Danio rerio with 6 samples.

Results

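The genes described here take part in the growth and guidance of axons and were measured in the telencephalon of sexually mature male zebrafish. They were chosen by gene symbol, and the rule was set with earlier results of these data known. It took every probe set with a single symbol of the families of collapsin response mediators (dpysl), stathmins (stmn), neural cell adhesion molecules (ncam), contactins (cntn) and ELAV-like proteins (elavl). It also took those of MARCKS proteins (marcks), plexins (plxn), semaphorins (sema), neuropilins (nrp1, nrp2), roundabout receptors (robo) and slits. Eph receptors (eph), ephrins (efn), netrins (ntn), gap43 and tubb5 completed the rule. This gave 66 genes, read by 79 probe sets, of 8793 named genes. The doublecortin-like kinases (dclk) and nrcama had no probe set under this rule, and the prefix of doublecortin (dcx) took only dcxr, an enzyme that reduces sugars and carbonyls. The prefix of the Eph receptors also took ephx1 and ephx5, whose symbols belong to the epoxide hydrolases. These 3 genes share letters with the families and not their role.

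An axon is led by its growth cone, which reads cues in its surroundings and turns them into changes of actin and microtubules. Netrins, slits, semaphorins and ephrins are such cues, and plexins, neuropilins, roundabout and Eph receptors are among the receptors. The adult fish brain goes on adding neurons, and its radial glia, which act as neural stem cells, hold brain aromatase.

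The fadrozole group was exposed to 200 µg/L of this inhibitor of aromatase, the enzyme that makes estrogens, for 10 days, and the other group served as its control. Each group had 3 arrays, and each array held RNA pooled from about 30 telencephalons. The strain was not stated in the labels, nor whether the controls had a vehicle. Levels are log2 ratios to the median control array after each array's overall shift was removed, and a difference is fadrozole minus control on that scale, with its standard error from limma and 3 arrays per group. Because the middle control array of each probe set was deposited as exactly 1, a single-probe-set gene has 1 control at 0.11, -0.25 or 0.14 (replicates 1, 2 and 3), which is only the shift removed. Signal strength was lost in that division, so genes cannot be ranked by abundance and the levels of telencephalic markers could not check the tissue. In pooled tissue, fewer cells of a type and less RNA per cell cannot be told apart.

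Of the 66 genes, 35 were higher and 31 lower with fadrozole, with a median log2 difference of 0.005, beside 4396 higher and 4397 lower among all genes. Differences ran from -2.04 for sema3ab to 2.24 for ntn1b. No member passed an adjusted p of 0.05 in limma (Benjamini-Hochberg), as no gene did (0% of all genes). Over all genes 360 of 8793 had an unadjusted p under 0.05 in limma, a smaller share than the threshold of 0.05 itself. All 66 adjusted p-values of members lay above 0.9. Under an unadjusted threshold of 0.05 that also asked for a 1.5-fold change, ncam1a and ntn1b were higher and sema3ab was lower. These 2 and 1 of 66 stand beside 2.1% of all genes higher and 1.98% lower, so the share is near the background. All fadrozole arrays lay above all controls for 3 members (ncam1a, ntn1b, epha6), beside 3.93% of all genes, and below them for 3 (gap43, sema3h, plxnb2a.1), beside 3.89%. With 3 arrays on each side the smallest p that an exact two-sided permutation test allows is 0.1. A change of at least 1.5-fold was seen in 16 members, or 24.2%, against 26.9% of all genes.

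**Figure D1:**
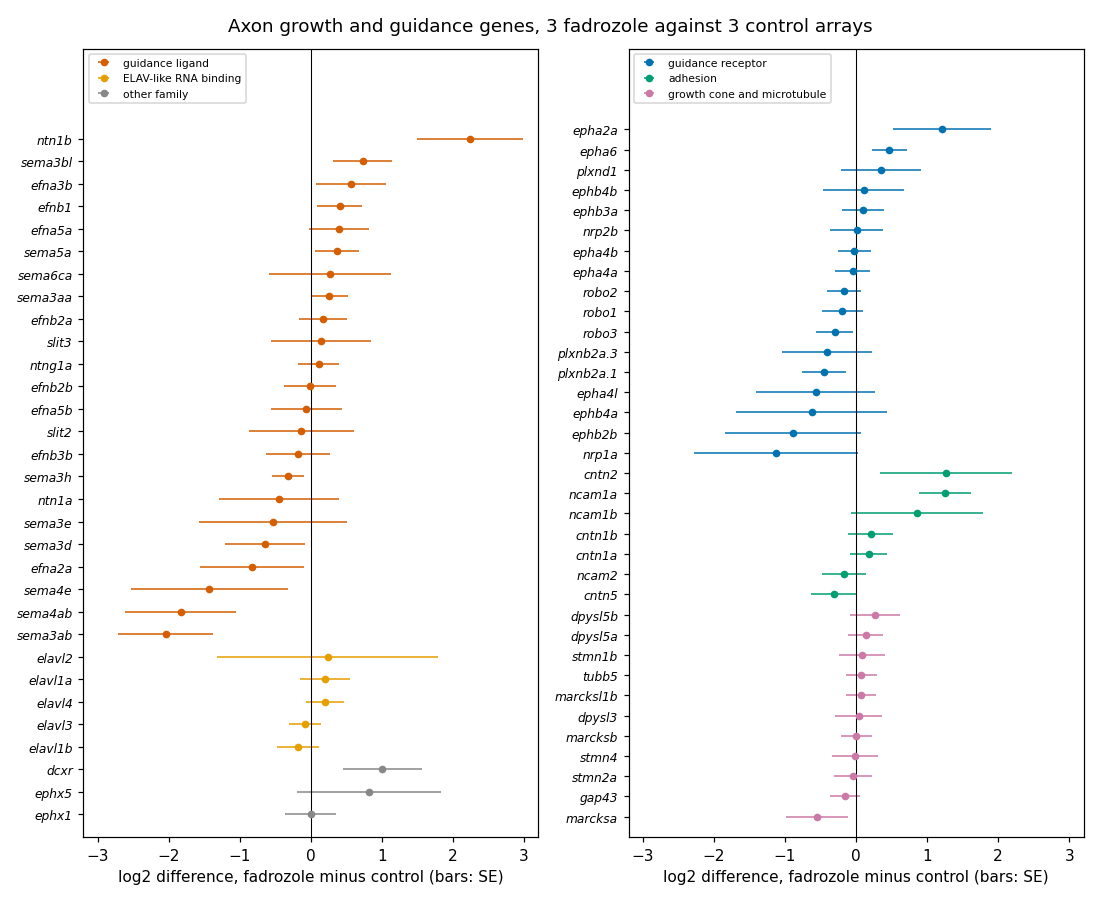
Log2 difference, fadrozole minus control, of the 66 genes (points) with its standard error (bars), coloured by role. Values run from -2.04 for sema3ab to 2.24 for ntn1b, and the 11 growth cone genes span only -0.55 to 0.27.

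Among the 23 cues, 11 were higher and 12 lower, with a median of -0.01. That median has no settled sign, as it was -0.22 without fadrozole replicate 1 and 0.22 without fadrozole replicate 2. Netrin 1 is a secreted, laminin-like cue that attracts or repels axons depending on their receptors, and zebrafish have a pair of genes for it. For ntn1b the levels were -0.71, -0.25 and 1.91 on control replicates 1, 2 and 3 and 3.16, 2.03 and 2.48 on the same-numbered fadrozole arrays. The groups did not overlap, but control replicate 3 stood far above the other controls and close to fadrozole replicate 2. The difference was 2.24 ± 0.74, or 4.73-fold, with an unadjusted p of 0.0236 in limma. It was 2.22 among the 4 arrays of the larger run of neighbouring slide numbers (replicates 1 and 3) and 2.28 in the smaller run (replicate 2). It ran from 1.73 without control replicate 1 to 3.04 without control replicate 3. In limma the unadjusted p rose above 0.05 without control replicate 1 (0.07) or 2 (0.0763). It did so too without fadrozole replicate 1 (0.0713) or 3 (0.0524). A fit without an array also has fewer arrays, so a lost call does not show that it rested on that array.

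The other netrin 1 gene, ntn1a, was at -0.45 ± 0.85, with its 3 probe sets at -0.10, -0.54 and -0.71. Its 95% interval, -2.52 to 1.62, reaches far in both directions. The membrane-anchored netrin gene ntng1a was at 0.11 ± 0.29.

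Semaphorins are cues that often repel axons, and 6 of the 10 measured were lower, with a median of -0.43. For sema3ab, a secreted class 3 semaphorin, the levels were 0.11, 0.23 and -1.22 on the controls and -2.42, -3.38 and -1.21 on the fadrozole arrays. Fadrozole replicates 1 and 2 were below every control, while replicate 3 of each group had nearly the same level, so the groups just overlapped. The difference was -2.04 ± 0.67, or 4.12-fold, with an unadjusted p of 0.023 in limma. It was -1.26 within the larger and -3.61 within the smaller run of slides. Leaving out fadrozole replicate 3 gave -2.60, and leaving out fadrozole replicate 2 gave -1.53. The call was lost in limma without control replicate 1 (unadjusted p 0.0691), control replicate 2 (0.0722), fadrozole replicate 1 (0.058) or fadrozole replicate 2 (0.0624). The other gene of the pair, sema3aa, was at 0.26 ± 0.25.

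The transmembrane semaphorin gene sema4ab was at 0.11, -1.37 and 0.45 on the controls and -1.75, -3.51 and -1.04 on the fadrozole arrays. Control replicate 2 lay inside the fadrozole range. Each fadrozole array was lower than the control of the same number, though the numbers were not taken to pair the arrays. The difference was -1.83 ± 0.78, with an unadjusted p of 0.0582 in limma, just outside the threshold. With the slide run as a block the standard error was 0.30 and the unadjusted p 0.00216 in limma, and in the larger run alone the unadjusted p was 0.0161. It also passed the threshold with plain median centring, no shift removed and array weights, and without control replicate 2 or fadrozole replicate 3. In limma its unadjusted p stayed above 0.05 under quantile normalisation, with other variance priors and with other treatments of probe sets. The same held without control replicate 1 or 3, or fadrozole replicate 1 or 2. For sema3h the levels were 0.11, 0.12 and -0.09 on the controls and -0.10, -0.30 and -0.42 on the fadrozole arrays. The groups were separate by a very small gap, at a difference of -0.32 ± 0.23. The gene sema3bl was at 0.73 ± 0.41, and each fadrozole array was higher than the control of the same number. It passed the unadjusted threshold in limma with the slide run as a block (p 0.0402). Without control replicate 2 it was at 0.34, with an unadjusted p of 0.319 in limma. Of the remaining semaphorins 2 were higher, sema5a at 0.37 ± 0.31 and sema6ca at 0.27 ± 0.85. The others were lower, sema3e at -0.53 ± 1.04, sema3d at -0.65 ± 0.56 and sema4e at -1.43 ± 1.101. The controls of sema4e alone ran from -2.38 to 1.99, a wider span than its difference.

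Ephrins are cues held on the cell surface that signal on contact, and 4 of 8 were higher, with a median of 0.08. Those of the A class were at 0.57 ± 0.49 for efna3b, 0.40 ± 0.42 for efna5a, -0.07 ± 0.50 for efna5b and -0.83 ± 0.73 for efna2a. Those of the B class were at 0.41 ± 0.32 for efnb1, 0.17 ± 0.34 for efnb2a, -0.01 ± 0.36 for efnb2b and -0.18 ± 0.45 for efnb3b. All 8 ephrins had overlapping groups, as had most genes: all fadrozole arrays were above all controls for 3.93% of genes and below them for 3.89%. The slits, secreted repellents best known at the midline, were at -0.13 ± 0.74 for slit2 and 0.15 ± 0.70 for slit3. On fadrozole replicate 1 both stood at 1.68, and on the other fadrozole arrays both were negative.

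Of the 17 receptors 6 were higher and 11 lower, with a median of -0.17. None had an unadjusted p under 0.05 in limma, which for 17 genes is near the share over all genes, 360 of 8793. With an array left out the median ran from -0.28 (fadrozole replicate 1) to -0.008 (fadrozole replicate 3). The 3 roundabout receptors, which bind slits, were at -0.20 ± 0.29 for robo1, -0.17 ± 0.24 for robo2 and -0.30 ± 0.26 for robo3. Each was negative within both runs of slides and with any array left out, but each was near or below its standard error, and robo1 stood at -0.003 without control replicate 1. The probe set of robo3, like those of elavl1b and ephb3a, carries a suffix that the array maker gives to probe sets shared by several transcripts.

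Eph receptors, which bind ephrins, were split, with 4 of 9 higher and a median of -0.02. For epha6 the levels were 0.11, 0.18 and -0.06 on the controls and 0.47, 0.81 and 0.36 on the fadrozole arrays. Every fadrozole array was above every control, at a difference of 0.47 ± 0.24, or 1.38-fold, with an unadjusted p of 0.102 in limma. It ran from 0.33 to 0.56 with an array left out, and was 0.39 in the larger and 0.63 in the smaller run. The widest difference in the family, 1.21 ± 0.69 for epha2a, came with controls from -1.18 to 1.02. Against the control of the same number it was 1.02, 0.76 and 1.84, though the numbers were not taken to pair the arrays. Without control replicate 1 it was 1.78, with an unadjusted p of 0.0339 in limma. It was 0.69 without control replicate 3 and 0.72 without fadrozole replicate 1 (unadjusted p 0.345 and 0.34 in limma). The epha4 genes were at -0.05 ± 0.24 (epha4a), -0.02 ± 0.23 (epha4b) and -0.57 ± 0.84 (epha4l). Those of the B class were at -0.89 ± 0.96 (ephb2b), 0.10 ± 0.29 (ephb3a), -0.63 ± 1.06 (ephb4a) and 0.11 ± 0.57 (ephb4b, negative under quantile normalisation).

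Plexins are the signalling receptors of semaphorins, and neuropilins are the partner receptors that most class 3 semaphorins bind. For plxnb2a.1 the levels were -0.03, 0.28 and 0.14 on the controls and -0.85, -0.08 and -0.05 on the fadrozole arrays. All fadrozole arrays were lower, but only replicate 1 was far from the controls, and the difference of -0.45 ± 0.31 came to -0.19 without it. The other plexins were at -0.41 ± 0.64 for plxnb2a.3 and 0.34 ± 0.56 for plxnd1. The neuropilin gene nrp1a was at 0.11, -0.96 and 1.602 on the controls and 1.47, -2.12 and -1.98 on the fadrozole arrays. Both groups spread over more than its difference of -1.13 ± 1.16, and fadrozole replicate 1 was the second highest of the 6 arrays. The other neuropilin gene, nrp2b, was at 0.006 ± 0.38, and its sign turned with plain median centring.

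Adhesion molecules of the immunoglobulin superfamily let axons bind each other and other cells, and 5 of the 7 measured were higher, with a median of 0.20, which was 0.07 without fadrozole replicate 1 and 0.42 without fadrozole replicate 2. The gene ncam1a encodes a neural cell adhesion molecule, which in its form bearing polysialic acid is known from newly formed neurons. Its levels were 0.11, 1.04 and -0.03 on the controls and 1.31, 1.81 and 1.76 on the fadrozole arrays. The groups did not overlap, and control replicate 2 came nearest to the fadrozole arrays. The difference was 1.25 ± 0.37, or 2.38-fold, with a 95% interval of 0.35 to 2.16 and an unadjusted p of 0.0149 in limma. It was 1.496 in the larger and 0.76 in the smaller run, and 1.05 to 1.59 with an array left out. In limma the unadjusted p was 0.0502 without control replicate 1, 0.0504 without fadrozole replicate 2 and 0.168 under quantile normalisation, where the difference was 0.88 ± 0.57.

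The second gene of that pair, ncam1b, was at 0.11, 1.86 and 0.005 on the controls and -0.16, 1.66 and 3.03 on the fadrozole arrays. Its difference of 0.85 ± 0.93 came to 0.10 without fadrozole replicate 3, and the gene ncam2 was at -0.17 ± 0.31. Contactins are adhesion molecules anchored to the membrane by a lipid. For cntn2 the levels were -0.92, 2.41 and 0.14 on the controls and 2.12, 2.46 and 0.85 on the fadrozole arrays, a difference of 1.26 ± 0.92. The controls differed among themselves by more than the groups did, and control replicate 2 was close to the highest array of all. For cntn5 the levels were 0.11, 0.38 and -0.16 against -0.34, 0.26 and -0.54, overlapping groups with a difference of -0.32 ± 0.31. The remaining contactin genes were at 0.17 ± 0.27 (cntn1a) and 0.20 ± 0.32 (cntn1b).

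**Figure D2:**
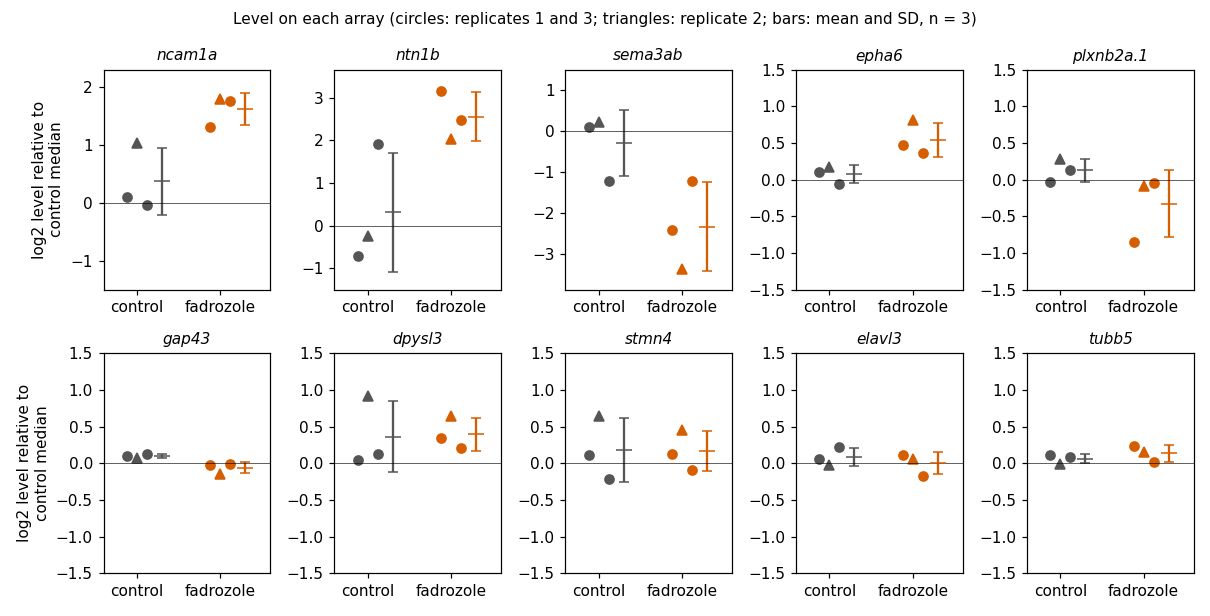
Log2 level relative to the control median on each array for 10 genes, with control arrays in grey, fadrozole arrays in orange, replicate 2 (the smaller slide run) as triangles, and the mean and SD of 3 arrays as bars; vertical scales differ between panels. The groups are separate for ncam1a, ntn1b, epha6, plxnb2a.1 and gap43, and for dpysl3 and stmn4 the triangles are the highest arrays of each group.

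The 11 genes of the growth cone and its cytoskeleton spanned a narrow range. Of these 7 were higher and 4 lower. None had an unadjusted p under 0.05 in limma, which for 11 genes is near the share over all genes, 360 of 8793. Their median of 0.03 has no settled sign: it was negative with plain median centring and without control replicate 1, control replicate 3 (-0.08) or fadrozole replicate 2, and 0.14 without control replicate 2. For 9 of the 11 the 95% interval of the difference lay within 2-fold in both directions, as it did for 28 of all 66 members, 5 of the 23 cues and 7 of the 17 receptors. The exceptions were marcksa (-1.61 to 0.51) and dpysl5b (-0.59 to 1.12).

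GAP-43 is a growth cone protein and a marker of growing and regenerating axons. Levels of gap43 were 0.10, 0.07 and 0.14 on the controls and -0.02, -0.14 and -0.009 on the fadrozole arrays. Every fadrozole array was lower, yet the difference was only -0.16 ± 0.21, or 1.12-fold, with a 95% interval of -0.68 to 0.36 and an unadjusted p of 0.481 in limma. The SD between arrays of a group was 0.06, and 0.171% of genes had a smaller one, while the standard error in limma also draws on the spread of all genes.

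Stathmins bind tubulin and promote the disassembly of microtubules. They were at 0.08 ± 0.33 for stmn1b, -0.04 ± 0.27 for stmn2a and -0.01 ± 0.32 for stmn4. Collapsin response mediators bind tubulin and act downstream of semaphorins. For dpysl3 the levels were 0.05, 0.92 and 0.14 on the controls and 0.35, 0.65 and 0.20 on the fadrozole arrays, a difference of 0.03 ± 0.33 whose sign turned with plain median centring and quantile normalisation. For dpysl5b they were 0.11, 0.41 and -0.67 against 0.36, 0.31 and -0.01, a difference of 0.27 ± 0.35. In both genes the fadrozole arrays lay inside the range of the controls. The third, dpysl5a, was at 0.14 ± 0.25.

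MARCKS proteins link the membrane to actin and are substrates of protein kinase C. The gene marcksb was at 0.11, 0.28 and 0.04 on the controls and 0.10, 0.28 and 0.06 on the fadrozole arrays, close values for each replicate number. Its difference of 0.003 ± 0.22 had a 95% interval of -0.54 to 0.55, and its sign turned with plain median centring and with no shift removed. The related marcksl1b was at 0.06 ± 0.21. For marcksa the levels were 0.66, 0.01 and 0.08 on the controls and 0.17, 0.06 and -1.13 on the fadrozole arrays, a difference of -0.55 ± 0.43. Its probe sets disagreed, at 0.11 ± 0.51 and -1.22 ± 0.89. The second of these had fadrozole replicate 3 at -3.16 and all other arrays between -0.24 and 0.27, and without that replicate marcksa was at -0.13. The beta tubulin gene tubb5 was at 0.11, -0.01 and 0.09 against 0.24, 0.15 and 0.02, a difference of 0.07 ± 0.22 between overlapping groups.

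ELAV-like proteins bind messenger RNAs, and elavl3 (HuC) is widely used as a marker of neurons in zebrafish. The 5 genes had a median of 0.20, with no settled sign: it was negative under quantile normalisation, with array weights, in the larger slide run alone, and without control replicate 2 (-0.14), fadrozole replicate 1 or fadrozole replicate 2. For elavl3 the levels were 0.06, -0.02 and 0.22 on the controls and 0.11, 0.06 and -0.17 on the fadrozole arrays, overlapping groups with a difference of -0.08 ± 0.23. For elavl4 (HuD) they were 0.13, -0.25 and -0.11 against 0.35, -0.22 and 0.24, at 0.20 ± 0.27. For elavl1b the controls were at 0.10, 0.08 and 0.14 and the fadrozole arrays at -0.23, 0.42 and -0.42, so that the fadrozole arrays spread around closely spaced controls, at -0.18 ± 0.30. The gene elavl1a was at 0.20 ± 0.35. The gene elavl2 had no measurable direction, at 0.24 ± 1.56, with control replicate 2 at -3.69 and fadrozole replicate 3 at -2.72.

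The 3 genes taken by letters alone were at 1.01 ± 0.55 for dcxr, 0.82 ± 1.01 for ephx5 and 0.002 ± 0.36 for ephx1, whose sign turned under all 3 other scalings. For dcxr the levels were 0.39, -0.25 and -1.51 on the controls and 0.88, -0.01 and 0.78 on the fadrozole arrays, with overlap. Without these genes 32 members were higher and 31 lower, with a median of 0.003.

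The families differed in how closely the arrays of a group lay together. The pooled SD between arrays of a group had a median of 0.44 over the members and 0.53 over all genes. By role the median was 0.25 for growth cone genes, 0.31 for ELAV-like genes, 0.37 for adhesion molecules, 0.47 for receptors and 0.68 for cues. Of the growth cone genes 10 of 11 lay below the median of all genes, against 7 of the 23 cues. The extremes were gap43 at 0.06 and elavl2 at 2.31. A difference of at least 2-fold was seen in 9 members, or 13.6%, against 12.4% of all genes. Of these 9, 3 passed limma's unadjusted threshold of 0.05 and 7 had groups that overlapped. How many of all genes with such a difference did so was not counted. Since signal strength is lost, the part of weak signal in this spread was not tested.

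**Figure D3:**
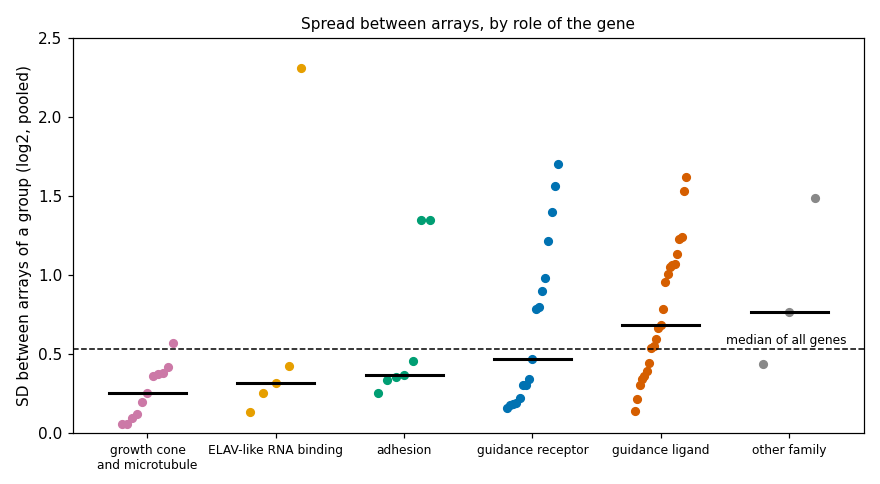
Pooled SD between arrays of a group (log2) for each of the 66 genes, by role; black bars are the median of each role and the dashed line is the median of all genes, 0.53. Growth cone genes have a median of 0.25 and cues one of 0.68.

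Probe sets of 1 gene, and gene pairs whose symbols differ only in a final a or b, were set side by side. Of the 9 members with several probe sets, 4 had all of them on one side of 0 (efna5a, efnb1, ntn1a, stmn1b). Of the 11 pairs, 4 had the same sign (cntn1, dpysl5, epha4, ncam1), or 36.4%, against 343 of 662 such pairs over all genes, or 51.8%. The widest gaps were in netrin 1, with ntn1b at 2.24 and ntn1a at -0.45, and in semaphorin 3a, with sema3ab at -2.04 and sema3aa at 0.26. How far a probe set also reads the other gene of its pair was not tested.

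Cues were also set beside families of receptors for them, as medians, without matching single cues to single receptors. Ephrins of the A class had a median of 0.17 and EphA receptors of -0.02, and ephrins of the B class had 0.08 and EphB receptors -0.27. The 2 slits had a median of 0.006 and the 3 roundabout receptors of -0.20. The 6 class 3 semaphorins had a median of -0.43 and the 2 neuropilins of -0.56. The latter is the midpoint of nrp1a at -1.13 ± 1.16 and nrp2b at 0.006 ± 0.38. All 10 semaphorins had a median of -0.43 and the 3 plexins of -0.41, without matching plexins to the class of semaphorin they bind. Of the plexins only plxnd1 was higher, at 0.34. All 3 roundabout receptors were lower, and each of the other families had members on both sides of 0. Among all of these, sema3ab alone passed the unadjusted threshold with 1.5-fold change, beside 2.1% of all genes higher and 1.98% lower.

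A comparison of the slide runs was added after the values were seen. Both arrays of the smaller run (replicate 2 of each group) were above all 4 arrays of the larger run for stmn1b, stmn2a, stmn4, dpysl3, dpysl5a and marcksb. These are 6 of the 11 growth cone genes, beside 12.5% of all genes, and 0 of the 11 were below, beside 10.7%. For stmn4 the levels were 0.11, 0.65 and -0.21 on the controls and 0.13, 0.46 and -0.08 on the fadrozole arrays, with replicate 2 the highest of each group. The median difference, smaller minus larger run, was 0.26 for growth cone genes, -0.42 for cues and -0.18 for receptors, against -0.008 over all genes. Of the 23 cues 0 were above and 3 (ntn1a, efna5a, efnb3b) below in both arrays of the smaller run.

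With group and run as terms in limma, no gene passed an adjusted p of 0.05 between runs (0% higher and 0% lower). Before adjustment 778 of 8793 genes and 6 of 66 members fell under 0.05, so the share of members was near that of all genes. Among the 6, ntn1a differed by -2.08 ± 0.28, sema4ab by -1.88 ± 0.32 and cntn2 by 1.89 ± 0.66. Other lists were read in the same way. Of the marker lists, 5 of 7 for mature neurons were above in both arrays of the smaller run (median run difference 0.34), 3 of 9 for the telencephalon (0.29), 2 of 7 for newborn neurons (0.21), 2 of 9 for radial glia (0.10) and 1 of 5 for oligodendrocytes (0.41), where 1 was below. None was above for the other 4 lists, whose medians were negative, the lowest being -1.06 for other brain regions. Of 30 signalling genes of the growth cone that are not members, 10 were above and 1 below, with a median of 0.22. The part of cell composition in this pattern was not tested, and slide run and replicate number 2 cannot be told apart.

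**Figure D4:**
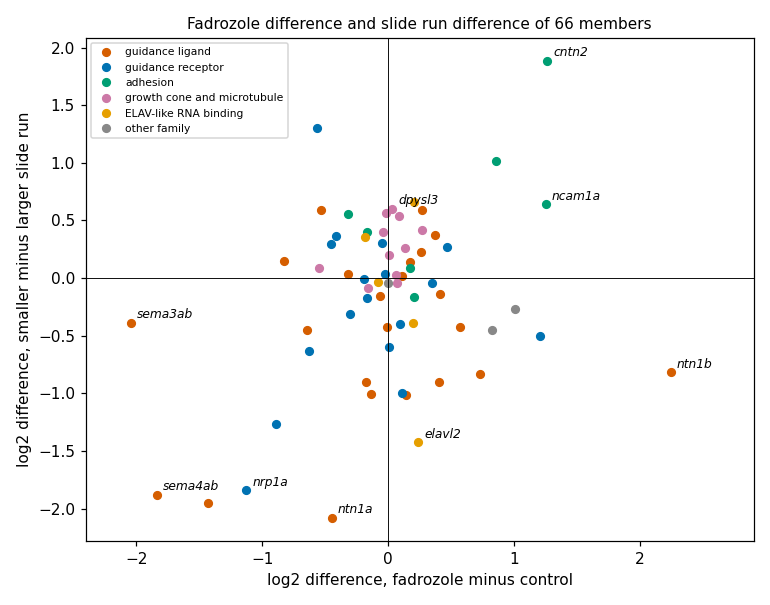
Log2 difference between fadrozole and control (horizontal) against the difference between the smaller and the larger slide run (vertical) for the 66 genes, coloured by role. Growth cone genes lie close to 0 horizontally and mostly above 0 vertically (9 of 11), and 8 of 23 cues lie above 0 vertically.

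Other genes of the pathway came from a list of 150 symbols, of which 69 were measured. Of these 36 were higher and 33 lower, with a median of 0.01, and 2 were higher and 0 lower at the unadjusted threshold with 1.5-fold change, beside 2.1% and 1.98% of all genes. All fadrozole arrays were above all controls for 6 of the 69 and below them for 1, beside 3.93% and 3.89%. The called genes were vangl2, a planar cell polarity gene, at 1.80 ± 0.54, and the alpha tubulin gene tuba2 at 1.07 ± 0.32, each with every fadrozole array above every control. The lower genes with the smallest p were the ankyrin gene ank2b at -0.83 ± 0.51 and the intermediate filament gene prph at -0.49 ± 0.34. The median was 0.01 for 22 further cues, receptors and adhesion genes, -0.02 for 30 signalling genes and 0.02 for 17 cytoskeletal genes.

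Brain aromatase, cyp19a1b, was at -1.11 ± 0.31, and marker lists were read beside the members as the mean level of each list per array. Single markers named here were chosen after their values were seen. Of 9 radial glia markers, 5 were higher, with a median of 0.06. Their mean ran from 0.07 to 0.18 on the controls and -0.03 to 0.02 on the fadrozole arrays, but 2 genes set this, cyp19a1b and her4.2 (a target of Notch signalling) at -0.75 ± 0.25, and the other 7 had a mean difference of 0.11. Of 7 newborn neuron markers, 5 were higher, with a median of 0.08. Their mean ran from -0.08 to 0.33 on the controls and 0.29 to 0.68 on the fadrozole arrays, and this came from neurog1, a proneural transcription factor, at 1.88 ± 0.62. The other 6, elavl3 and tubb5 among them, lay between -0.30 and 0.20.

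Mature neuron markers (7) ran in mean from -0.03 to 0.54 on the controls and 0.001 to 0.34 on the fadrozole arrays, and telencephalic markers (9) from -0.05 to 0.23 on the controls and -0.10 to 0.10 on the fadrozole arrays. Both lists overlapped between groups. Markers of other brain regions (8) ran from -0.74 to 0.48 on the controls and -0.72 to 0.21 on the fadrozole arrays, a mean over genes that differed. The hindbrain gene hoxb5a was at 0.11, 0.31 and -0.31 on the controls and -2.90, -2.66 and -2.06 on the fadrozole arrays, lower on every one, at -2.57 ± 0.33 (limma, p 0.000234 unadjusted and 0.471 adjusted over all genes). The forebrain and midbrain gene otx2a was at 1.14 ± 0.57, higher on every fadrozole array. The remaining 6 had overlapping groups.

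Oligodendrocyte markers (5) ran in mean from -0.80 to 0.15 on the controls and 0.007 to 0.19 on the fadrozole arrays. The lowest mean was that of control replicate 3, where sox10 stood at -2.73 and olig2 at -1.26. Of the 5 genes 3 were higher and 2 lower, with a median of 0.03. Among them mbpa alone had separate groups, at 0.52 ± 0.23. It was higher on every fadrozole array, as were 3.93% of all genes. The 2 endothelial markers ran in mean from -0.11 to 0.33 on the controls and 0.48 to 0.94 on the fadrozole arrays, though each gene overlapped between groups. Those of microglia and leukocytes (6) ran from -0.14 to 0.34 on the controls and -0.24 to 0.59 on the fadrozole arrays. Of these 2 were higher and 4 lower, with a median of -0.15. The gene ptprc (the leukocyte antigen CD45) was at 1.54 ± 0.56, past the unadjusted threshold, while the other 5 had a mean difference of -0.14. Markers of red blood cells (4) ran from -0.15 to 0.22 on the controls and -0.23 to 0.32 on the fadrozole arrays. Whether any defining marker was near 0 in signal cannot be read from ratios, and the part of cell composition in the members' values was not tested.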

How the data were processed

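RNA of 6 pools was hybridised to 1-colour arrays, per the labels. Scanner software, scaling and probe set summary were not stated. The authors deposited linear ratios: in all 15617 rows the 3 control arrays had a median of exactly 1. No filter on dim signal was possible. After log2, the median deviation of each array from the probe set means was removed, relative to the mean of these shifts. Control probe sets of the maker (115) and probe sets with several symbols (135) or none (4572) were not used, which left 10795. Symbols came from GEO's platform annotation, and all 66 members had the same symbol in a RefSeq table for GRCz12tu. Log2 values were averaged per gene and all 8793 genes fitted with limma 3.58.1 in R 4.3.3 (lmFit, eBayes, two-sided, Benjamini-Hochberg). The code was tested on simulated data.

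The members and lists were chosen with earlier results of these data known. Given on every array were members with an unadjusted p under 0.05, or separate groups with 1.5-fold change, the smallest p of each direction in each role, and gap43, elavl3, tubb5, dpysl3, marcksb and ncam1a. Single probe sets were given where those of a gene differed in sign by at least 1, and those of ntn1a were added after they were seen. Outside the members, cyp19a1b and the 2 higher and 2 lower pathway genes of smallest p were named. Array values of sema4ab, sema3h, nrp1a, cntn2, ncam1b and stmn4 were added after they were seen. Alternatives were the replicate number or slide run as a block, the larger run alone, each array left out, other scalings and variance priors, array weights and other treatments of probe sets. Nothing states that pools of a group were independent, so p-values cover only the spread between arrays, whose number limits the precision. No sequence is shown, since no sequence table was used here.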

Additional observations from a re-analysis of the deposited data

How the results depend on the processing

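No gene passed the adjusted test under any of the 17 alternatives to the limma fit. Of all genes 359 passed the unadjusted threshold with 1.5-fold change, against 178 under quantile normalisation and 366 to 560 with an array left out, the highest without control replicate 2. Of the members 3 did so, against 5 with the slide run as a block (sema3bl and sema4ab added), 1 under quantile normalisation (ntn1b) and 1 with a variance trend (ncam1a). With the replicate block the counts were 478 genes and 4 members (ncam1a, ntn1b, and newly epha2a and sema4ab at unadjusted p of 0.0219 and 0.00255), while sema3ab was lost (0.0702). The numbers were not taken to pair the arrays: deviations of same-numbered arrays correlated over genes at 0.0725, 0.185 and 0.0931, although each array correlated best with its own number. The median over members ran from -0.04 to 0.07. Of the 66 members, 36 kept their sign with each array left out, as many as under all 17 alternatives that measured them. Under the 3 other scalings 60 did. The blocks and other variance priors leave every difference unchanged, so they could not turn a sign. For members short of the unadjusted threshold a change of sign was counted here and not treated as a reversal. For the 3 called members no sign turned, but 17 of their values under alternatives lost the call. Between slide runs, 10 growth cone genes were above in the smaller run with no shift removed, where 2400 of all genes were, and 8 with plain median centring, where 1754 were. Their median run difference was then 0.57 and 0.48. Causes were not tested. A filter on dim signal was not run, since signal strength is lost.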
